A study of Mus musculus with 12 samples.

Results

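The untreated state of an MLL-AF9 leukaemia was described from RNA-seq of 5 mice, the libraries titled as vehicle among the 12 of the study. Each library came from GFP-positive acute myeloid leukaemia cells of 1 mouse, isolated by sorting of bone marrow. All 5 mice, like the other 7 of the study, were labelled MLL-AF9 transgenic, and the treatment label was vehicle. The other 7 libraries came from mice given doxorubicin and cytarabine (3 and 4 mice, taken 3 and 10 days after the last dose) and enter no value below. The strain, sex and age of the mice, the make-up of the vehicle, the promoter of the transgene and whether the 5 leukaemias arose from 1 clone were not stated in the labels used here. Normal marrow cells were not analysed here, so no level below is a difference between leukaemia and normal cells.

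MLL-AF9 joins the front of the histone methyltransferase MLL, encoded by Kmt2a, to AF9, encoded by Mllt3, a partner of complexes that release paused RNA polymerase and of the methyltransferase Dot1l. The fusion holds open the homeobox genes of the Hoxa cluster and their cofactor Meis1, which committed myeloid cells normally shut off. In mice it can turn the granulocyte-monocyte progenitor, the shared precursor of neutrophils and monocytes, into a leukaemia-initiating cell. That progenitor and the promyelocyte fill primary granules with myeloperoxidase, elastase and related proteases, whereas secondary granule proteins such as lactoferrin appear only later in neutrophil maturation.

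The deposited values are FPKM, fragment numbers corrected for transcript length and for the size of the library, for 24883 gene entries. Such values can be compared between genes because length is taken out. The intervals in the files implied 1226471 fragments in mouse 3, 2351134 in mouse 2 and 5189377 to 6173864 in the others. Behind the median entry with an FPKM of 1 or more stood 43.9 implied fragments in mouse 3 and 80.7 to 224 in the others. Spearman's coefficient between pairs of mice, across entries that are no independent replicates, was 0.962 to 0.986. Mouse 1 lay alone on the first principal component of the log2 values (41.3% of the variance, at 33.6 against -13.4 to 0.594), and mouse 3 lay at the top of the second (29.8%, at 26.8 against -17.2 to 1.67). No pair of libraries was identical (0 pairs). Results that rest on mouse 1 are therefore also given without it.

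The most abundant transcripts were those of the protein synthesis machinery, and Plac8 and Elane, genes of the granulocyte-monocyte progenitor, also stood among the 25 highest. Of the 24883 entries, 9670 (38.9%) had an FPKM of at least 1 in every mouse, and 9448 (37.97%) were listed at 0 in every mouse. Small RNAs of under 300 bp or with small-RNA symbols were left out of the ranks, because a library of longer fragments does not measure them well. Among the remaining entries 5794 had a mean FPKM of at least 10 and 1011 of at least 100. The 25 most abundant held 19.1% ± 0.849 (SD, n = 5) of the summed FPKM, with 17.9% as the lowest and 20.1% as the highest mouse. Cytosolic ribosomal protein genes made up 18 of these 25 and 67 of the top 100, and all 82 genes of their list together held 33.8% of the summed FPKM.

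Eef1a1, which encodes the factor that brings aminoacyl-tRNA to the ribosome (chromosome 9, 78478454 to 78481724, GRCm38), had the highest mean at 10261 ± 579.7 FPKM. Its values in mice 1 to 5 were 11049, 10674, 9988, 9955 and 9640.2 FPKM, and its rank was 1 to 3 in every mouse. It was followed by Rpl41, a ribosomal protein gene, at 8742 ± 1576 FPKM, with 7529, 10340.4, 7128, 10487 and 8228 FPKM in mice 1 to 5. Rpl41, Rplp1 and Rps12, all genes of ribosomal proteins, were each higher in mice 2 and 4 than in the other 3 mice. The translation-linked gene Tpt1 (mean 4895 FPKM), the cyclophilin gene Ppia (5138) and the actin-sequestering thymosin gene Tmsb4x (6789) were also in the top 25. Gm15772, at a mean of 4966 FPKM, is a predicted gene, and such entries can hold reads of ribosomal genes with similar sequence, since how such reads were assigned is not given in the sources used here.

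**Figure D1:**
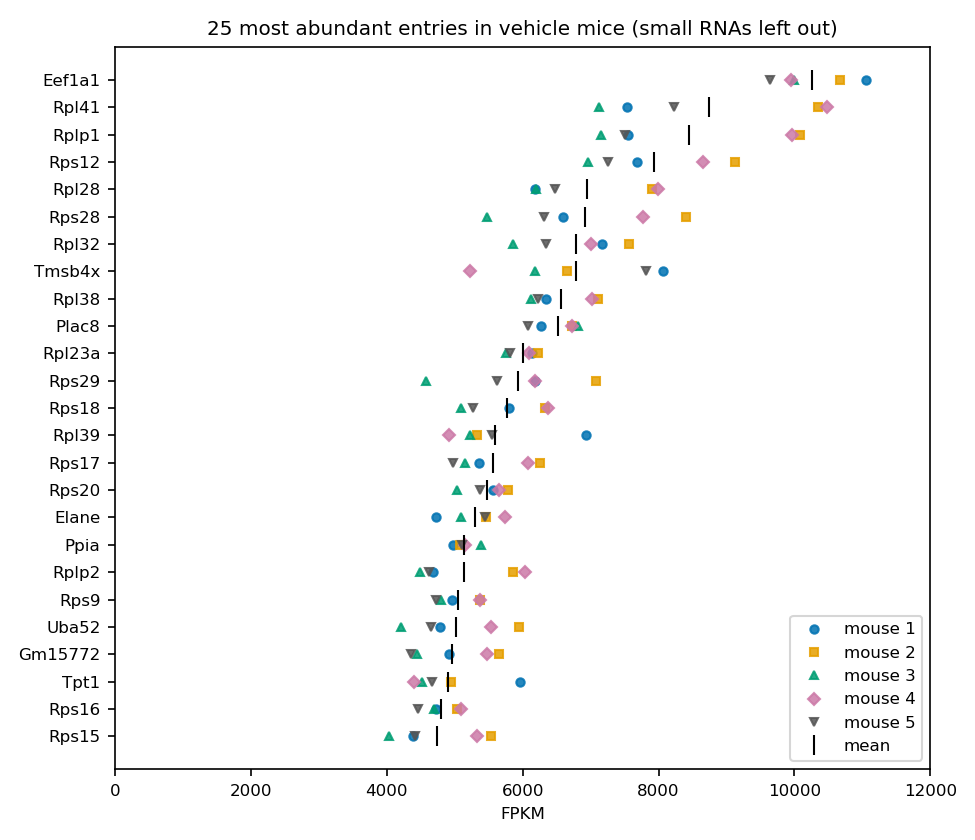
FPKM (x axis, linear) of the 25 entries with the highest mean over the 5 vehicle mice, small RNAs left out, with 1 symbol per mouse and a black bar at the mean. Plac8 and Elane belong to the granulocyte-monocyte progenitor list, and their 5 points lie close together at means of 6521 and 5291 FPKM.

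Plac8, a small cysteine-rich protein gene of myeloid progenitors (chromosome 5, 100553733 to 100572205), was the most abundant gene of the myeloid lists. It had 6273, 6727, 6808, 6721 and 6079 FPKM in mice 1 to 5, a mean of 6521 ± 325 and rank 10. The neutrophil elastase gene Elane (chromosome 10, 79886312 to 79888216) had 4722, 5459, 5090.5, 5735 and 5448 FPKM and rank 17. These genes differed little between mice, with a highest-to-lowest fold of 1.12 and 1.21 on the FPKM + 1 scale, which is used for all folds of single genes here, whereas ratios of sums are of FPKM. Prtn3, which encodes proteinase 3 and lies next to Elane (chromosome 10, 79879667 to 79883172), had 3726, 4583, 4132, 4682 and 4226 FPKM and rank 31. Myeloperoxidase, the enzyme that makes hypochlorous acid in neutrophils and is encoded by Mpo (chromosome 11, 87793784 to 87804412), had 1915, 3087, 2996, 3009 and 2923 FPKM. Mouse 1 was the lowest of the 5 for Mpo, while the other 4 lay within a narrow range. Ctsg, the cathepsin G gene (chromosome 14, 56099881 to 56102574), had 2769, 2509.8, 2504, 2832 and 2798 FPKM, with mouse 1 among the high values.

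The list of the granulocyte-monocyte progenitor and its primary granules was abundant, and its summed level differed little between mice. Of its 20 genes 19 were at an FPKM of at least 1 in every mouse, against 38.9% of all entries, and its median of mean FPKM was 114, against 12.3 for all entries at a mean of at least 1 that are not small RNAs. Its summed level in mice 1 to 5 was 24473, 26676, 26129.6, 27607 and 26256 FPKM, a highest-to-lowest ratio of 1.13, which a few abundant genes set. An entry was said to vary where its mean FPKM was at least 1, its highest mouse was at least 2-fold above its lowest and its SD of log2(FPKM + 1) was at least 2 times the SD implied by the authors' intervals. By this rule 683 of 10558 entries (6.47%) varied, and of the 20 genes 3 varied (15%), or 2 of 20 without mouse 1. These were Ctsc, the cathepsin C gene, Fcnb, a ficolin gene, and the protease gene Prss34, all lowest in mouse 1. Prss34 is a basophil protease gene, although the list holds it, and is described again below with genes of that lineage. Srgn, which encodes the proteoglycan that packs granule proteases, was at 1736 ± 228 FPKM, and Calr, the chaperone of myeloperoxidase folding, at 1374 ± 114. Ms4a3, a membrane protein gene used to trace granulocyte-monocyte progenitors, had 150.5, 89.7, 92.3, 103 and 117 FPKM and was highest in mouse 1.

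Genes of mature neutrophils were also present, but their level depended on the mouse. The list of secondary granule and mature neutrophil genes summed to 8084, 10286, 11686, 18498 and 12468 FPKM in mice 1 to 5, a ratio of 2.29 between mouse 4 and mouse 1. Of its 29 members found, 27 were at an FPKM of at least 1 in every mouse, against 38.9% of all entries. The alarmin gene S100a8 was the most abundant of them at 3726 ± 1613 FPKM and rank 42, and its partner S100a9 was at 2671 ± 1346. Stfa1, a stefin protease inhibitor gene of a family with near-identical copies and hence an uncertain value, had 1989.6, 735, 771, 867 and 1155 FPKM and was highest in mouse 1. Cxcr2, the chemokine receptor by which mature neutrophils leave the marrow, was low in every mouse, at 1.65, 4.33, 5.66, 6.93 and 3.19 FPKM.

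Among monocyte genes the most abundant encode the Ly6C antigen, which progenitors share. Ly6c2, one of the genes of the Ly6C antigen (chromosome 15, 75108161 to 75111949), had 2189.8, 2225, 2191, 2283 and 2065 FPKM in mice 1 to 5, and summed with its near-identical neighbour Ly6c1 it ranged by 1.10 times between mice. Ccr2, the receptor that draws monocytes out of the marrow, was at 10.8 ± 1.57 FPKM, and F13a1, a coagulation factor subunit gene of monocytes, at 32.1 ± 4.85. Cx3cr1, a receptor of later monocytes, stood at 1.01, 1.26, 1.23, 0.824 and 1.29 FPKM. The integrin gene Itgam, which encodes CD11b, had 49.9, 61.1, 71.1, 76.7 and 63.9 FPKM. Of 27 monocyte genes 21 were at an FPKM of at least 1 in every mouse, against 38.9% of all entries, and the summed level was 3634, 4160.4, 3892, 3883 and 3595 FPKM, with a ratio of 1.16. Most of this sum was that of Ly6c1 and Ly6c2, at a mean of 2777 of 3833 FPKM. Of 25 tested members 6 varied (24%), against 6.47% of all entries, and 15 were lowest in mouse 1, against 35.6%. Without mouse 1, 2 of 25 varied. The lipopolysaccharide coreceptor gene Cd14 was highest in mouse 1, at 8.65, 3.84, 1.001, 4.68 and 4.22 FPKM, and the calcium-binding protein gene S100a4 was lowest there, at 14.6, 55.2, 27.05, 31.1 and 26.5.

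Macrophage genes ranged from abundant to nearly silent. Adgre1, the gene of the F4/80 antigen, had 85.1, 79.98, 87.4, 72.8 and 76.1 FPKM, and Vcam1, an adhesion molecule gene of marrow macrophages and stroma, had 93.98, 42.2, 52.1, 62.2 and 67.5. Vcam1 was highest in mouse 1 and lowest in mouse 2. The complement genes C1qa and C1qb, which define resident macrophages, were at 4.87 ± 1.83 and 4.64 ± 1.87 FPKM, and the scavenger receptor gene Cd163 was at 0.358 ± 0.216. Of the 26 genes of this list 10 were at an FPKM of at least 1 in every mouse, against 38.9% of all entries, and 2 were listed at 0 in every mouse.

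Several markers of other marrow lineages were near 0, and others, globin genes among them, were well above it. The B cell marker Pax5 was at 0.256 ± 0.308 FPKM, and the T and natural killer cell markers Cd3e and Ncr1 at 0.293 ± 0.386 and 0.0208 ± 0.0464. Of 20 B cell genes 1 was at an FPKM of at least 1 in every mouse, against 38.9% of all entries. This was Cd79b, a subunit gene of the B cell receptor, at 27.4 ± 7.29 FPKM. Its partner Cd79a was at 1.49 ± 1.16. Of 21 T and natural killer cell genes 3 were at an FPKM of at least 1 in every mouse, against 38.9% of all entries. They were led by the granule membrane gene Nkg7 at 23.2 ± 5.18 FPKM. Of the osteoclast genes Acp5, an acid phosphatase gene, had 11.3, 10.4, 10.8, 23.8 and 13.8 FPKM in mice 1 to 5, highest in mouse 4, while Ctsk, the cathepsin K gene, was at 0.9102 ± 1.18. The dendritic cell gene Siglech was at 0.329 ± 0.406. The megakaryocyte markers Pf4 and Itga2b were at 0.807 ± 0.898 and 0.462 ± 0.379 FPKM. Among mast cell, basophil and eosinophil genes, Hdc, the histamine-forming decarboxylase gene, was at 76.4 ± 8.91 FPKM and Siglecf, a lectin gene of eosinophils, at 33.8 ± 4.24, whereas the mast cell protease gene Cpa3 was at 1.93 ± 1.21 and the eosinophil peroxidase gene Epx at 0.104 ± 0.144. As a check of the labelled cell type, the defining markers of the granulocyte-monocyte progenitor were thus high, while Pax5, Cd3e and Ncr1 were at or near 0.

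**Figure D2:**
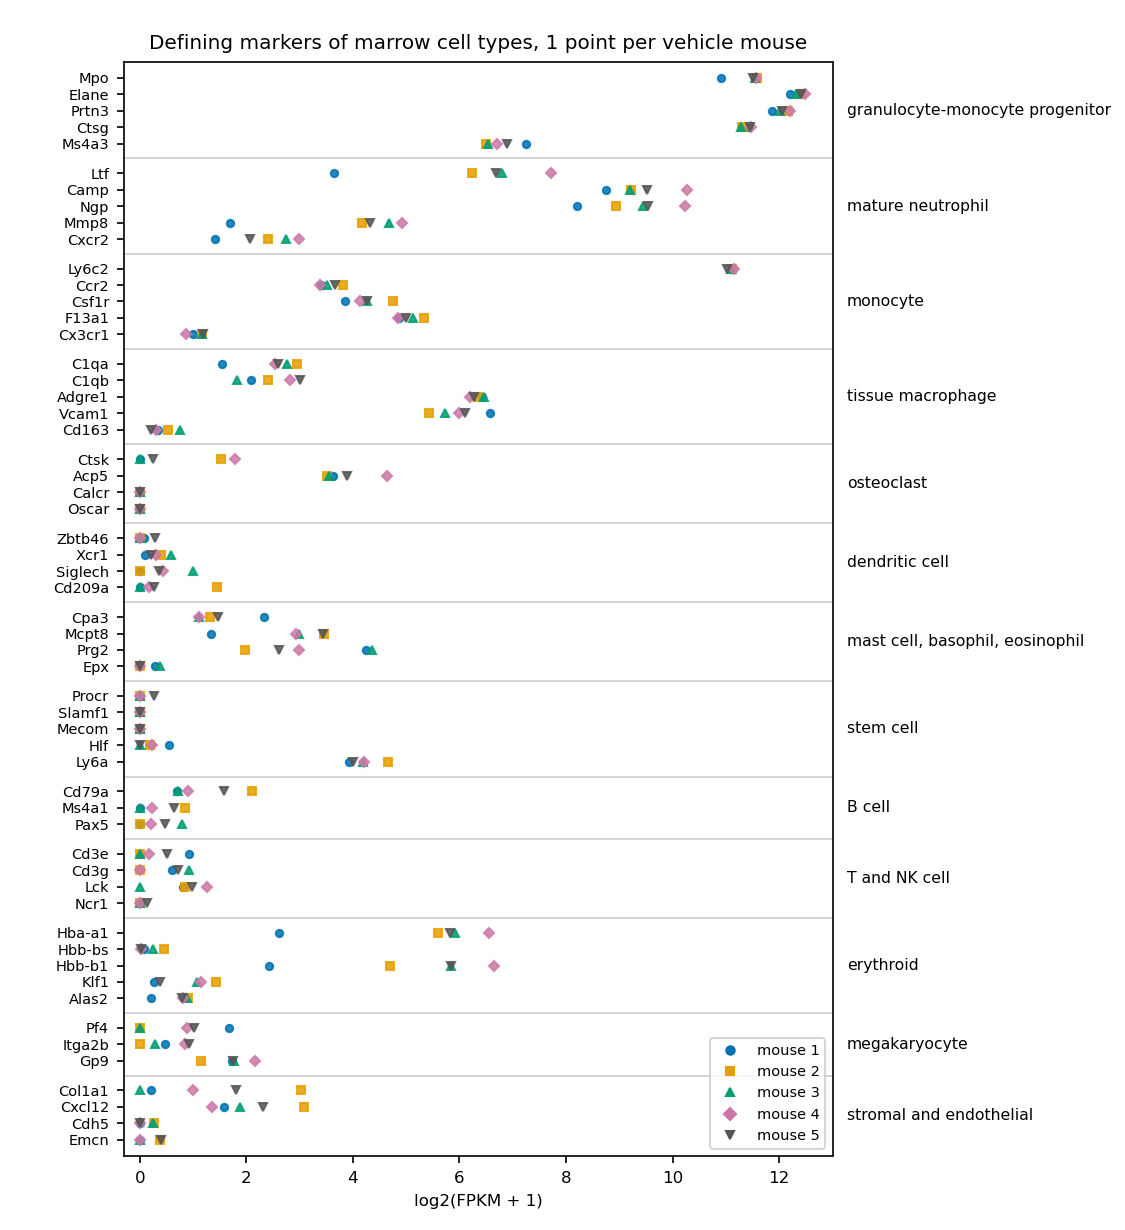
Defining markers of 13 marrow cell types as log2(FPKM + 1), with 1 symbol per vehicle mouse. Elane, Prtn3, Mpo, Ctsg and Ly6c2 lie furthest to the right and the markers of B, T and natural killer cells to the left, while neutrophil and haemoglobin genes spread widely, with mouse 1 lowest and mouse 4 highest for Ltf, Ngp and Hba-a1.

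Several defining markers of haematopoietic stem cells were at or near 0. Procr and Hlf, genes used to mark the most immature stem cells, were at 0.0402 ± 0.0899 and 0.155 ± 0.189 FPKM, and Slamf1 and Mecom were listed at 0 in every mouse. Of 22 stem cell genes 7 were at an FPKM of at least 1 in every mouse and 6 were listed at 0 in every mouse, near the shares of all entries (38.9% and 37.97%). Cd34, a sialomucin of stem and progenitor cells (chromosome 1, 194938821 to 194961292), had 75.2, 83.5, 122, 88.1 and 79.4 FPKM in mice 1 to 5 and was highest in mouse 3. The stem cell factor receptor gene Kit (chromosome 5, 75574987 to 75656721) had 25.2, 25.5, 26.3, 27.5 and 24.3 FPKM, with a fold of 1.13 between the extremes. Ly6a, the gene of the Sca-1 antigen, was at 17.6 ± 4.02 FPKM, and Flt3, a cytokine receptor of lymphoid-primed progenitors, at 1.81 ± 0.584.

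The transcription programme associated with MLL fusions was present at moderate levels. Of the 24 members tested for spread 0 varied between mice, a count near the share of all entries (6.47%). Without mouse 2 or without mouse 3, 1 of 24 varied. The list of 30 genes summed to 838, 808, 889, 907 and 871 FPKM, a ratio of 1.12. Of the 30 in the list, 23 were at an FPKM of at least 1 in every mouse, against 38.9% of all entries. Its most abundant gene was Lmo2, an adaptor of haematopoietic transcription complexes, at 330.2 ± 28.8 FPKM. Myb, a transcription factor gene of progenitors (chromosome 10, 21124930 to 21160984), had 108, 99.3, 114, 112 and 110.5 FPKM in mice 1 to 5. The proto-oncogene Myc (chromosome 15, 61985341 to 61990361) had 54.9, 69.2, 64.9, 62.9 and 63.99 FPKM, and Cdk6, a G1 kinase gene, 54.7, 38.02, 44.1, 45.3 and 48.3. Both Myb and Myc stayed within a fold of 1.15 and 1.25. Meis1, the Hox cofactor gene (chromosome 11, 18880428 to 19018969), had 11.3, 14.5, 13.3, 16.6 and 16.7 FPKM and Pbx3, another cofactor gene, 30.6, 25.4, 25.3, 26.3 and 27.2. Eya1, a phosphatase and transcription cofactor gene, was at 13.8 ± 1.53 FPKM, while Mef2c, a transcription factor gene counted in the programme, was at 0.151 ± 0.0305 and Zfp521 was listed at 0 in every mouse.

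Within the homeobox clusters, which pattern the body axis in embryos and act in blood progenitors, expression was concentrated in Hoxa9 and Hoxa10. Hoxa9 (chromosome 6, 52223097 to 52227370) had 52.6, 41.7, 56.2, 53.96 and 59.7 FPKM in mice 1 to 5 and Hoxa10 (chromosome 6, 52231197 to 52240854) had 43.6, 36.1, 38.02, 44.03 and 39.3. These levels ranked 1796 and 2287, and in mouse 2 both were lowest. Hoxa7 followed at 6.42, 10.1, 7.94, 11.9 and 10.6 FPKM and Hoxa5 at 1.67, 1.78, 2.18, 2.62 and 4.22. Hoxa11, beyond Hoxa10 in the cluster, was at 0.315 ± 0.254 FPKM, and Hoxa13 was listed at 0 in every mouse. The order Hoxa9, Hoxa10, Hoxa7, Hoxa5 held in all 5 mice. Hoxa6 had 0, 0.375, 1.47, 1.96 and 5.27 FPKM, a spread that did not exceed 2 times the error implied by its intervals. Of 10 Hoxb genes Hoxb13 alone was at an FPKM of at least 1 in every mouse, against 38.9% of all entries. Hoxb13 was at 5.63 ± 0.732 FPKM and Hoxb4 at 1.27 ± 0.476. Of 18 Hoxc and Hoxd genes 16 were listed at 0 in every mouse, against 37.97% of all entries. By contrast, Hoxc8 (chromosome 15, 102990539 to 102994254) had 17.8, 10.2, 9.93, 8.02 and 7.32 FPKM. Hoxc8 was highest in mouse 1, and the other 4 mice did not exceed 10.2.

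The genes that form the fusion and its partners were expressed at low to moderate levels. Kmt2a had 0.856, 1.08, 1.305, 1.49 and 1.99 FPKM and Mllt3 had 0.156, 0.653, 0.742, 0.638 and 0.486, and gene-level values cannot tell transcripts of the fusion from those of the native genes. The methyltransferase gene Dot1l was at 6.004 ± 0.972 FPKM and Men1, which encodes the menin scaffold of the MLL complex, at 12.2 ± 2.43. The core subunit gene Wdr5 was the most even of those named, at 42.2, 49.6, 51.9, 52.9 and 44.2 FPKM.

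Among myeloid transcription factors the pioneer factor gene Spi1, which encodes PU.1 (chromosome 2, 91096797 to 91115756), was high and even, at 233, 277, 226, 268 and 246 FPKM in mice 1 to 5. Cebpa, the factor that opens the granulocyte-monocyte programme (chromosome 7, 35119293 to 35121931), had 45.1, 57.4, 56.4, 60.3 and 49.7 FPKM. Cebpe, which drives secondary granule genes (chromosome 14, 54710363 to 54712174), was higher than Cebpa at 81.9, 108, 88.8, 118 and 91.6 FPKM, and its values exceeded those of Cebpa in each mouse. Gfi1, a repressor needed for granulocytes, was at 47.9 ± 5.45 FPKM. Irf8, which directs progenitors to monocytes (chromosome 8, 120736358 to 120756692), had 27.8, 60.2, 49.5, 38.1 and 37.9 FPKM and was lowest in mouse 1 and highest in mouse 2. The erythroid factor genes Gata1 and Klf1 were at 0.522 ± 0.684 and 0.9005 ± 0.631 FPKM. Rara, the retinoic acid receptor gene, and Maf, a factor of macrophages, were highest in mouse 1, where Irf8 was lowest. Rara had 58.4, 39.9, 30.96, 25.6 and 22.2 FPKM and Maf had 12, 1.44, 0.772, 0.955 and 3.41. In mice 2 to 5 Rara fell in the same order as Irf8, so that their contrast rests on mouse 1. Of 31 factors tested 4 varied, against 6.47% of all entries, and 1 of 31 did without mouse 1, against 3.41%.

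Most cytokine receptor and surface genes were present, with 33 of 37 at an FPKM of at least 1 in every mouse, against 38.9% of all entries. Of the 33 tested 0 varied, a count not far below the share of all entries (6.47%). Cxcr4, the receptor that retains cells in the marrow (chromosome 1, 128588199 to 128592299), had 171, 169.7, 179, 169 and 148 FPKM in mice 1 to 5. Fcgr3, which encodes the CD16 antigen, was at 263 ± 17.4 FPKM. The receptor subunit genes of the cytokine GM-CSF were at 109 ± 22.4 (Csf2ra) and 25.7 ± 2.44 (Csf2rb), and the G-CSF receptor gene Csf3r was at 23.2 ± 1.47. Il3ra, a receptor subunit gene of IL-3, had 32.2, 52.9, 31.3, 34.9 and 29.7 FPKM and stood apart in mouse 2. Csf1r, the receptor for the monocyte factor M-CSF, had 13.5, 26.02, 18.3, 16.6 and 18.1 FPKM and was highest in mouse 2. The common leukocyte gene Ptprc, which encodes CD45, was at 36.2 ± 2.13 FPKM.

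Proliferation genes were expressed throughout. All 44 DNA replication genes were at an FPKM of at least 1 in every mouse, against 38.9% of all entries. Of these 44, 0 varied, against 6.47% of all entries. Pcna, the sliding clamp gene, had 462, 509.6, 538, 513 and 484 FPKM in mice 1 to 5, and Rrm2, the regulated subunit gene of ribonucleotide reductase, had 84.5, 81.5, 87.2, 80.7 and 88.8. Of 46 G2 and mitosis genes 45 were at that level in every mouse and 2 varied, near the share of all entries. The proliferation antigen gene Mki67 had 6.45, 6.39, 8.51, 8.14 and 13.97 FPKM, highest in mouse 5, and the mitotic kinase gene Plk1 had 24.9, 44.6, 49.3, 52.9 and 43.8, lowest in mouse 1. Trp53, which encodes p53, was at 109.8 ± 13.1 FPKM, and 0 of its 20 tested targets varied, a count near the share of all entries. Its target Cdkn1a, the gene of the inhibitor p21, had 13.96, 15.95, 20.96, 13.98 and 12.1 FPKM and the apoptosis effector gene Bax 117, 163, 129, 158 and 128. Cdkn2a, a cell cycle inhibitor and tumour suppressor gene (chromosome 4, 89274473 to 89294619), had 7.799, 24.4, 10.05, 11.6 and 7.49 FPKM. Mouse 2 was at least 2-fold above every other mouse for Cdkn2a.

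Few members of the metabolic lists named here varied between mice. In lists of 14 to 24 tested members a count of 0 or 1 is near the share of all entries. With 0 varying members, against 6.47% of all entries, were pyrimidine synthesis (16 tested), purine synthesis (17), glutamine and aspartate metabolism (18), targets of hypoxia-inducible factor (24) and drug uptake and activation (14). The nuclear genes of the respiratory chain and ATP synthase, 75 in all, were at an FPKM of at least 1 in every mouse, against 38.9% of all entries. Of these 75, 1 varied, Ndufs5, a complex I subunit gene, against 6.47% of all entries. Of 22 glycolysis genes 1 varied, against 6.47% of all entries, and 18 were lowest in mouse 1, against 35.6% of all entries. After median-of-ratios scaling between libraries 14 of 22 were lowest there, against 24.7%. Slc29a1, the nucleoside transporter that carries cytarabine, had 39.04, 39.3, 44.2, 43.5 and 44.2 FPKM in mice 1 to 5. Dck, the kinase that activates it, had 17.1, 15.8, 19.7, 14.7 and 12.8, whereas Cda, the deaminase that inactivates it, was at 0.1398 ± 0.2. Samhd1, a phosphohydrolase that cleaves its triphosphate, was lowest in mouse 1, at 21.5, 43.7, 38.9, 35.7 and 36.5 FPKM. The anti-apoptotic genes Mcl1 and Bcl2 were at 50.3 ± 2.3 and 5.42 ± 1.75 FPKM, and the efflux pump gene Abcb1a was at 0.00908 ± 0.0203.

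Among genes with a mean FPKM of at least 20, the 10 with the lowest SD of log2(FPKM + 1) included Map2k1, the MAP kinase kinase MEK1 gene, Anapc16, a subunit gene of the anaphase-promoting complex, Hmgb2, a chromatin protein gene, and Anxa11, an annexin gene. Map2k1 had 44.6, 45.1, 43.5, 44.5 and 44.7 FPKM in mice 1 to 5 and Anapc16 had 22.5, 22.2, 22.04, 22.5 and 22.7. Anxa11 had 61.8, 62.5, 64.3, 63.1 and 62.1 FPKM. The fold between the extremes was 1.04 for Map2k1 and 1.04 for Anxa11, against a median of 1.41 over the 10558 entries with a mean FPKM of at least 1. These genes were chosen for their low spread, and the SD of log2 values was below the error implied by the intervals, at 0.0193 against 0.08 for Map2k1 and 0.0158 against 0.155 for Anapc16.

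Genes that differed between untreated mice were few, and among the lists with at least 20 tested members their share was highest for neutrophil, interferon-stimulated and MHC class I genes. By the rule given above, 683 entries varied, of which 92 were small RNAs. The median SD of log2 values between mice was 0.20, against 0.13 implied by the intervals. Without mouse 1 the count was 361 of 10579 (3.41%). Of the 48 gene lists 14 had no varying member. Mouse 1 was the highest of the 5 mice in 199 and the lowest in 209 of the 591 varying entries that are not small RNAs. It lay at least 2-fold above all others in 69 entries and at least 2-fold below all others in 59, whereas the other mice did so in 3 to 8 and in 2 to 37. Of the 37 entries in which mouse 3 was lowest in this way, the median rested on 12.5 implied fragments, and mouse 3 had the fewest fragments.

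**Figure D3:**
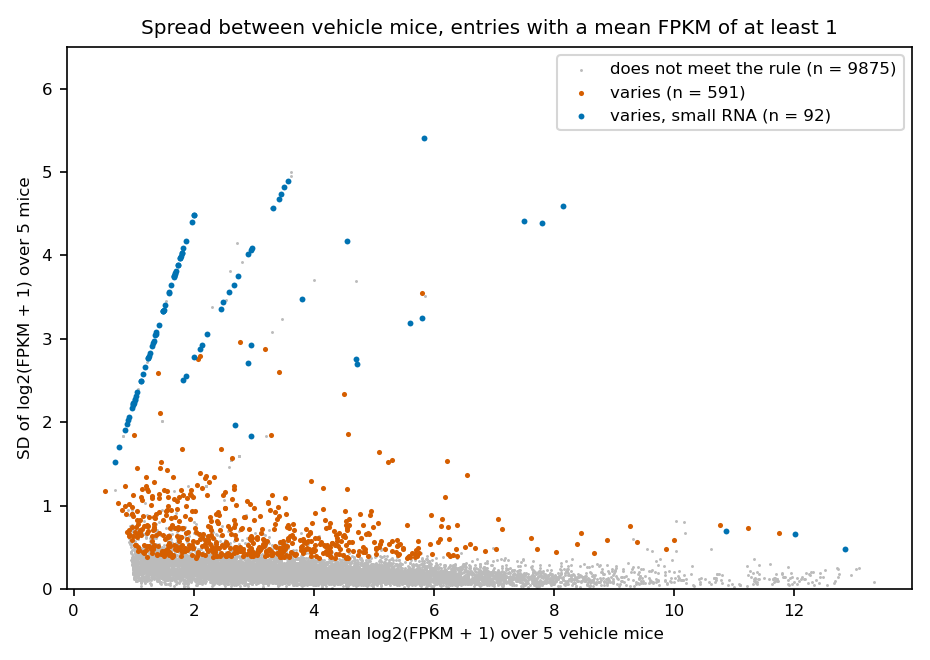
Mean (x axis) and SD (y axis) of log2(FPKM + 1) over the 5 vehicle mice for entries with a mean FPKM of at least 1, with the entries that vary in colour. Most entries lie near the median SD of 0.20, and the straight lines at the upper left are small RNAs found in 1 or a few libraries.

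**Figure D4:**
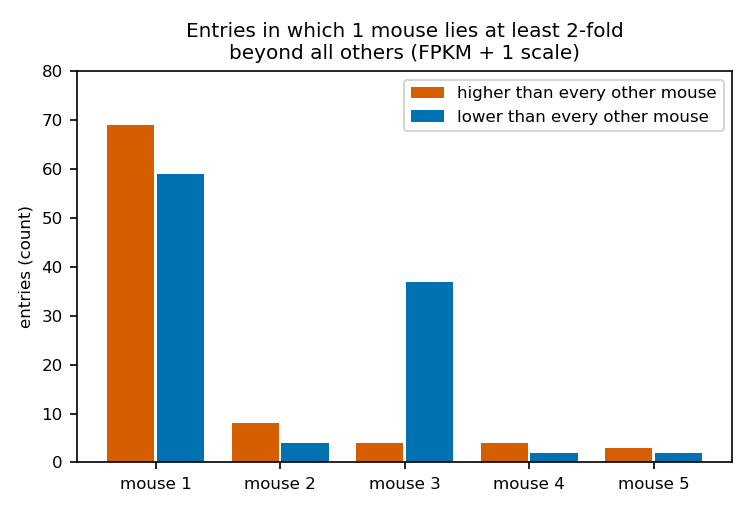
Number of entries (y axis) in which 1 mouse lies at least 2-fold above or below every other mouse on the FPKM + 1 scale. Mouse 1 has 69 and 59 such entries, and mouse 3, the shallowest library, has 37 lower ones.

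Secondary granule genes were ordered alike at the extremes, with mouse 1 lowest and mouse 4 highest. Ltf, which encodes lactoferrin (chromosome 9, 111019292 to 111042766), had 11.4, 74.5, 110.1, 211 and 102 FPKM in mice 1 to 5. Ngp, the neutrophilic granule protein gene (chromosome 9, 110419808 to 110423012), had 295, 489.8, 698, 1207 and 738, and Camp, the cathelicidin gene (chromosome 9, 109847377 to 109849456), 431, 595, 585, 1235 and 732. S100a8 (chromosome 3, 90669071 to 90670034) had 1716, 2901, 3990.3, 6085 and 3939 FPKM. Mouse 4 exceeded every other mouse for all 4 of these genes, and mouse 1 was the lowest. Retnlg, a resistin-like gene of neutrophils, had 16.6, 123, 131, 189.7 and 128 FPKM, and Mmp8, the collagenase gene of neutrophil granules, 2.24, 16.9, 24.7, 29.3 and 19.01. The SD of log2 values was 1.54 for Ltf and 1.30 for Mmp8, against 0.11 for Elane and 0.13 for Prtn3 of the primary granules. Of 28 tested neutrophil genes 17 varied, against 6.47% of all entries tested, and mouse 1 was the lowest in 18 of 28, against 35.6% of all entries. Without mouse 1 the count was 9 of 29, and without mouse 4 it was 15 of 28. In 4 tested members mouse 1 was instead the highest, Stfa1, its relative Stfa3, the membrane protein gene Mcemp1 and Olfm4, the olfactomedin gene of a neutrophil subset, and of these Stfa1 and Stfa3 varied. In bulk samples, fewer cells of a type and less RNA per cell cannot be told apart.

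Haemoglobin genes followed the same mice. Hba-a1, an alpha-globin gene listed at 2 loci, had 5.09, 47.4, 59.2, 93.5 and 55.4 FPKM in mice 1 to 5 at the locus with the higher mean (chromosome 11, 32283672 to 32284486). The Hba-a2 entry at the same place had 0.0167, 0.113, 0.136, 63.4 and 16.6 FPKM, so the division of reads between these entries is uncertain. The beta-globin genes Hbb-b1 and Hbb-b2, which are near-identical copies, summed to 6.16, 43.97, 91.8, 176 and 101.8 FPKM. As for Ltf, mouse 1 was lowest, mouse 2 next and mouse 4 highest. The whole list of 19 erythroid genes summed to 19.96, 112, 184, 361 and 198 FPKM, and all 8 tested members were lowest in mouse 1, against 35.6% of all entries. Of these 8, 7 varied, against 6.47% of all entries, or 3 of 9 without mouse 1. Of the genes of erythroid precursors themselves, the heme synthesis gene Alas2 was at 0.67 ± 0.292 FPKM and the factor gene Klf1 at 0.9005 ± 0.631. Other genes of red cells were higher and lowest in mouse 1. Car1 had 0, 1.13, 6.61, 2.48 and 3.20 FPKM in mice 1 to 5, Car2 0.0883, 2.12, 4.14, 4.71 and 3.05, and Slc4a1 0.0323, 1.46, 1.34, 2.65 and 1.14. The part that other marrow cells in the sorted samples play in the neutrophil and globin values was not tested.

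Interferon-stimulated genes formed the list with the most varying members. Interferons bind receptors at the cell surface, and their signal reaches the nucleus, where a complex that holds IRF9 binds the interferon-stimulated response element. The gamma-activated site is a further element, through which interferon gamma acts. Of 38 tested members 23 varied, against 6.47% of all entries, and 34 of 38 were lowest in mouse 1, against 35.6% of all entries. Without mouse 1, 3 of 38 varied. To show what the members share in their promoters, the 250 bases before the start were searched for the letters GAAANNGAAA, a core of the response element, and TTCNNNGAA, the core of the gamma-activated site, on both strands. RefSeq windows (GRCm38.p6) were matched for 28 of the 38 members, and 18 (64.3%) held the response element, against 936 of 27025 genes (3.46%). The gamma-activated site was in 7 of the 28 (25%), against 8.13% of genes. These promoters are printed 5′ to 3′ on the strand of the gene, for members with steep differences between mice and for B2m, the shared subunit of MHC class I, with the matched letters of either motif in capitals.
Isg15 (chr4:156200819-156201068, minus strand): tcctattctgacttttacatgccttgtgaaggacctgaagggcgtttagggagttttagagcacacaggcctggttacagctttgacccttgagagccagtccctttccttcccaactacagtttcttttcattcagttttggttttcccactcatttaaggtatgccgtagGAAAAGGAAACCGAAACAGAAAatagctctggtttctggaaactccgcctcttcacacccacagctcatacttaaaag
Cxcl10 (chr5:92348890-92349139, minus strand): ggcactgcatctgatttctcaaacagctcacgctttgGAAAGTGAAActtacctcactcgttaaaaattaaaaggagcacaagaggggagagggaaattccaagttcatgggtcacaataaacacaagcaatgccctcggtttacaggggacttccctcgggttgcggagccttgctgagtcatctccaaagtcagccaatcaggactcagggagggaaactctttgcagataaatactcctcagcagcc
Gbp2 (chr3:142620413-142620662, plus strand): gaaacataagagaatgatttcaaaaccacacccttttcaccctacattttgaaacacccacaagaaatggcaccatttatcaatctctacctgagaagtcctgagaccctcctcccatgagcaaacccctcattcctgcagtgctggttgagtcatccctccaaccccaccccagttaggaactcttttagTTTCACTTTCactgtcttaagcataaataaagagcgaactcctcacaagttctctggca
Igtp (chr11:58199306-58199555, plus strand): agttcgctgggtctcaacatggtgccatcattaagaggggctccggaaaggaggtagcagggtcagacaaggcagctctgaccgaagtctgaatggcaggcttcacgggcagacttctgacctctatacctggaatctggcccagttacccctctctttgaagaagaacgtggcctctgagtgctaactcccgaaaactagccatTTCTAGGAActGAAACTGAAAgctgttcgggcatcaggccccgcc
Tgtp1 (chr11:48992247-48992496, minus strand): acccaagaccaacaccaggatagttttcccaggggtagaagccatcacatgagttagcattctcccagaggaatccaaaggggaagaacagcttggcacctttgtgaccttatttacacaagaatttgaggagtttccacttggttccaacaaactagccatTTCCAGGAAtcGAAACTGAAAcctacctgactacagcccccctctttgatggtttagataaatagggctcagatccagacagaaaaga
B2m (chr2:122147437-122147686, plus strand): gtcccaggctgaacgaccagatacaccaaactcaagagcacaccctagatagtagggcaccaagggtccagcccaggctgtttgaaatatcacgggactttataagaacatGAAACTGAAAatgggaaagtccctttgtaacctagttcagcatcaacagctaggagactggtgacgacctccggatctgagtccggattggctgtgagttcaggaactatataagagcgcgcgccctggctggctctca
In Isg15 the capitals hold 3 overlapping response elements, which begin 66 to 78 bases before the start. Igtp and Tgtp1 each hold a gamma-activated site next to a response element, and Cxcl10, Gbp2 and B2m hold 1 response element each. B2m does not stand for its list, since 3 of 17 MHC class I genes with a window held the response element, against 3.46% of genes. Of the 9 varying ones with a window 1 held it. A match is a description of letters and not a measured site of binding.

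In the members with these promoters mouse 1 was the lowest of the 5 mice. Isg15, which encodes a ubiquitin-like modifier, had 10.4, 23.6, 29, 33.7 and 20.6 FPKM in mice 1 to 5. Cxcl10, a chemokine gene, had 1.72, 14.95, 6.51, 10.7 and 7.87 FPKM, and Gbp2, a guanylate-binding protein gene, 6.94, 44.4, 22.4, 25.6 and 27.9. Mouse 1 was the lowest in all 3 genes, and mouse 2 was the highest for Cxcl10 and Gbp2 and mouse 4 for Isg15. The immunity-related GTPase gene Igtp had 8.82, 35.05, 24.7, 28.9 and 25.4 FPKM. Tgtp1 and its near-identical neighbour Tgtp2 summed to 0.967, 20.7, 19.9, 12.9 and 9.95 FPKM. Irf7, the factor that amplifies the interferon response, had 7.19, 27.2, 23.4, 26.6 and 15.7 FPKM and was lowest in mouse 1. Ifitm3, a restriction factor of virus entry, had 24.5, 99.9, 95.8, 94.9 and 70.9 FPKM and Bst2, the tetherin gene, 76.3, 163, 146, 175 and 115. In both, mouse 1 was lowest and mice 2, 3 and 4 lay above mouse 5. The receptor gene Ifngr1 was even, at 202, 164, 184, 169 and 194 FPKM. The summed list was at 871, 1614, 1547, 1446 and 1205 FPKM.

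MHC class I genes were also mostly lowest in mouse 1. Of 21 tested 11 varied, against 6.47% of all entries (2 of 21 without mouse 1), and 18 of 21 were lowest in mouse 1, against 35.6% of all entries. H2-K1, a classical heavy chain gene (chromosome 17, 33996012 to 34000333), had 524, 1185, 1057, 1119 and 959.8 FPKM in mice 1 to 5, and Tap1, the peptide transporter gene, 50.3, 123, 107, 106 and 89.1. Their coactivator gene Nlrc5 had 0.2705, 2.05, 1.73, 1.74 and 1.63 FPKM. Heavy chain genes have close paralogs, so the division of reads between them is uncertain. B2m, a single gene (chromosome 2, 122147687 to 122153082), had 2239.9, 3138, 3974, 3163 and 3184 FPKM, lowest in mouse 1 and highest in mouse 3, a fold of 1.77 that missed the rule for varying genes. Of 10 tested MHC class II genes 4 varied, H2-Aa, H2-Ab1, H2-Eb1 and Cd74, against 6.47% of all entries, and 1 of 10 did without mouse 1. Lowest in mouse 1 were 6 of the 10, or 5 of 10 after median-of-ratios scaling, against 35.6% and 24.7% of all entries. H2-Aa, an alpha chain gene (chromosome 17, 34282751 to 34287771), had 4.85, 33.6, 19.4, 17.4 and 22.8 FPKM and the invariant chain gene Cd74 8.79, 50.02, 29.5, 24.8 and 36.7. Mouse 2 was highest and mouse 1 lowest in both. The dendritic cell factor gene Zbtb46, a marker of cells rich in class II, was at 0.0559 ± 0.0955 FPKM. The whole list of 15 dendritic cell genes summed to 84.2, 176, 154, 186 and 128 FPKM, lowest in mouse 1. The B cell gene Cd79a had 0.623, 3.32, 0.649, 0.866 and 1.98 FPKM, lowest in mouse 1 and highest in mouse 2. The part of such cells in the class II values was not tested.

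**Figure D5:**
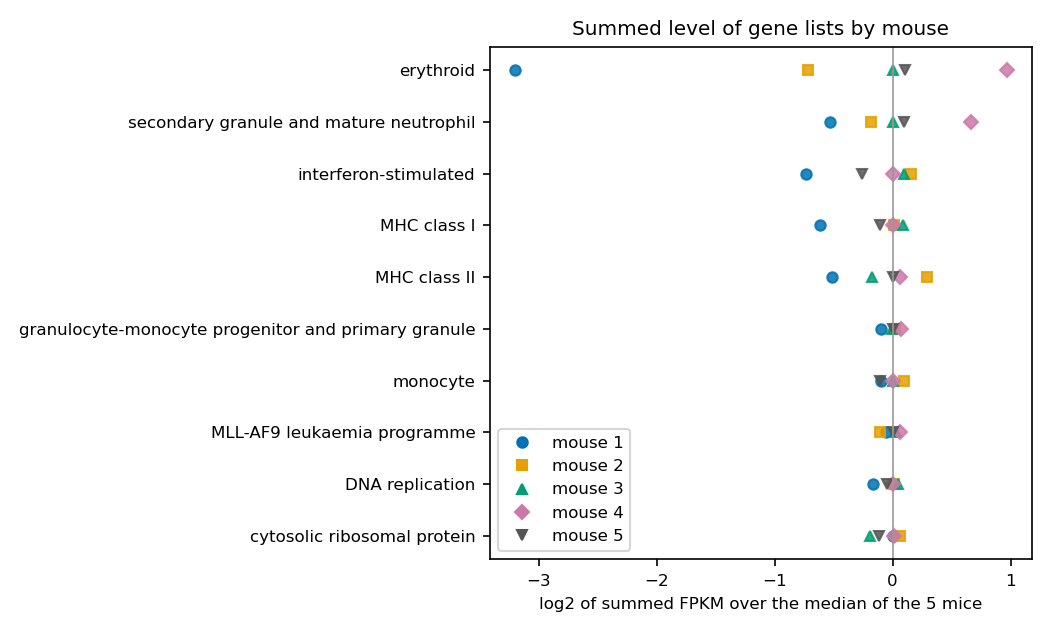
Summed FPKM of 10 gene lists in each vehicle mouse, as log2 of the ratio to the median of the 5 mice (x axis). The erythroid, neutrophil, interferon and MHC lists are lowest in mouse 1, and the progenitor, monocyte, MLL-AF9, replication and ribosomal lists stay near 0.

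Lipid synthesis genes were also low in mouse 1, by a smaller margin. Of 27 tested genes of cholesterol synthesis and related lipid metabolism 25 were lowest in mouse 1, against 35.6% of all entries, and 4 varied, against 6.47% (0 of 28 without mouse 1). Fasn, the fatty acid synthase gene, had 11.2, 26.5, 26.6, 32.5 and 25.4 FPKM in mice 1 to 5. After median-of-ratios scaling between libraries, 20 of 27 were lowest in mouse 1, against 24.7% of all entries, and 1 varied.

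In 69 entries mouse 1 alone was higher, by at least 2-fold. Of their 67 symbols 3 were in any list, Maf, the lung chemokine gene Cxcl15 and the linker histone gene Hist1h1c. Of the 58 symbols lower in mouse 1 alone, 36 were in a list. For scale, the lists named 1170 symbols, against 24346 in the data. They held 1009 tested entries, some in more than 1 list, against 10558 tested in all, so that 3 of 67 is not above the share expected of any genes. The lists were chosen with earlier results of these data known, so the 36 of 58 is no support for them. The genes named next were picked from the 69 after their values were seen. Fgf5, a fibroblast growth factor gene (chromosome 5, 98254184 to 98277033), had 19.5, 2.64, 2.76, 1.96 and 5.56 FPKM in mice 1 to 5, and Nkx2-9, a homeobox gene, 31.8, 10.8, 7.86, 5.34 and 8.54. The homeobox gene Barhl2 had 43.3, 17.4, 12.8, 11.8 and 13.96 FPKM and Snap25, a synaptic fusion gene, 24.3, 7.95, 6.74, 5.25 and 9.43. In these 4 genes mouse 1 stood apart and the other mice were lower but above 1. Bmp4, a morphogen gene, had 15.6, 5.07, 3.29, 3.81 and 4.44 FPKM and Trmt61a, a tRNA methyltransferase gene, 197, 95.6, 68.2, 52.96 and 57.1. After mouse 1 the next highest was mouse 5 in 41 of the 69 entries and mouse 2 in 26. Rn45s, the precursor of ribosomal RNA, was among the 69 at 4121, 1246, 1389, 1091 and 2029 FPKM. The median transcript length of the 69 was 3444 bases with a GC content of 48.2%, against 3211 and 49.6% for all tested entries, and their median entry rested on 45.6 implied fragments, against 171. The part of ribosomal RNA content or of the library in these differences was not tested.

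Mouse 2 differed in genes of bone-forming and stromal cells. Col1a1 and Col1a2, the chains of type I collagen, had 0.156, 7.14, 0, 1.01 and 2.503 and 0.142, 9.67, 0.148, 0.658 and 1.801 FPKM in mice 1 to 5. Bglap, the osteocalcin gene, was at 0, 5.15, 0, 0 and 0 FPKM, and its value in mouse 2 rested on 3.36 implied fragments. Sparc, a bone matrix protein gene, was at 0.518, 5.82, 0.2997, 0.733 and 2.69 FPKM. All 4 were highest in mouse 2, with mouse 5 the second for Col1a1, Col1a2 and Sparc. Cxcl12, the ligand of Cxcr4 made by marrow stroma, had 1.98, 7.43, 2.67, 1.56 and 3.99 FPKM. Of 9 tested stromal and endothelial genes 5 varied, against 6.47% of all entries, or 2 of 6 without mouse 2. Some of the 9 thus reached a mean FPKM of at least 1 only through mouse 2, so this count is no support for the difference. The endothelial markers Cdh5 and Emcn were at 0.0781 ± 0.107 and 0.126 ± 0.172 FPKM.

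Of 7 tested mast cell, basophil and eosinophil genes 2 varied, Mcpt8 and Prg2, against 6.47% of all entries, and 1 of 7 did without mouse 1. Mcpt8, a basophil protease gene, had 1.54, 9.97, 6.89, 6.63 and 9.88 FPKM in mice 1 to 5, and Prg2, the eosinophil major basic protein gene, 17.9, 2.93, 19.5, 6.89 and 5.15. Mcpt8 was lowest in mouse 1, whereas Prg2 was high in mice 1 and 3 and low in mouse 2. Prss34, a basophil protease gene outside this list, had 0, 5.15, 6.48, 13.1 and 13.6 FPKM and was also lowest in mouse 1. The list did not share this, since mouse 1 was lowest in 1 of the 7 (14.3%), against 35.6% of all entries, and highest in 2. Cpa3 was highest in mouse 1, at 4.04 against 1.17 to 1.78 FPKM in the other mice.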

How the data were processed

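RNA was measured in GFP-sorted leukaemia cells of 5 vehicle mice, with RNA extracted by RNeasy micro kit and libraries from NEB kits, per the labels' protocols. The authors deposited FPKM values per gene entry with the bounds of a 95% interval, which came from Cufflinks after STAR alignment according to the submitters' processing notes. Which versions, gene models and rules for multiply matching reads were used is not given in the sources used here. Although mm9 is the build named there, 22934 of 23072 symbols (99.4%) overlapped the gene of the same name in GENCODE M21, and positions are given as GRCm38. FPKM depends on library composition, since each value is divided by the library total. The tables held 0 mitochondrial entries.

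From the FPKM, log2(FPKM + 1), means, SDs over mice, ranks and list sums were computed (Python 3.11.15, pandas 2.3.3, numpy 2.4.6). The interval half-width was read as 2 SD, which gave the error and the implied number of fragments of each value, for counting error only. Samples were grouped by title. This is a description of 1 group, with no test between groups. The rule for varying entries was also run on simulated data that held planted changes and counting error only. Such data cannot show how often other variation between libraries is called, so no support is drawn from them. The 48 gene lists (1281 entries, 1274 found) and all rules were chosen with earlier results of these data known. Named genes were the 25 most abundant, the 5 highest small RNAs, the 25 most variable at a mean FPKM of at least 5 (all of them small RNAs, so 40 longer entries were added after values were seen), the 10 least variable at a mean of at least 20, the leading and varying members and markers of each list and a fixed set of leukaemia genes, of which those that matter are reported. Alternatives were other pseudocounts, filters, thresholds and scalings and the omission of each mouse. Other genes that the rule names are given as counts, and a few are not reported here.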

Additional observations from a re-analysis of the deposited data

Results flagged for a closer look

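For 230 values, the genes named here and the list sums, the gap between the most extreme mouse and its nearest neighbour was divided by the range of the 5 mice. It exceeded 0.71 in 29 (12.6%). Chance flags about 1 in 20 groups, and part of these genes were named because they varied.

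Mouse 1 lay apart above the others, in FPKM, for Barhl2 (43.3 against 11.8 to 17.4, ratio 0.821), Bmp4 (15.6 against 3.29 to 5.07, ratio 0.855), Cpa3 (4.04 against 1.17 to 1.78, ratio 0.787) and Cxcl15 (32.5 against 10.2 to 14.3, ratio 0.817). The same held for Fgf5 (19.5 against 1.96 to 5.56, ratio 0.794), Hist1h1c (62.8 against 13.3 to 22.3, ratio 0.819), Hoxc8 (17.8 against 7.32 to 10.2, ratio 0.722) and Maf (12 against 0.772 to 3.41, ratio 0.765). It also held for Nkx2-9 (31.8 against 5.34 to 10.8, ratio 0.793), Snap25 (24.3 against 5.25 to 9.43, ratio 0.78) and the summed Hoxc and Hoxd clusters list (17.8 against 7.34 to 10.2, ratio 0.724). Mouse 1 lay apart below the others for Alas2 (0.158 against 0.737 to 0.862, ratio 0.822), Mpo (1915 against 2923 to 3087, ratio 0.86), Nlrc5 (0.2705 against 1.63 to 2.05, ratio 0.765) and the summed G2 and mitosis list (2314 against 2625 to 2734, ratio 0.742). Mouse 2 stood above the rest for Cdkn2a (24.4 against 7.49 to 11.6, ratio 0.756), Col1a2 (9.67 against 0.142 to 1.801, ratio 0.826), Ddx3y (0.505 against 0 to 0.1099, ratio 0.782) and Il3ra (52.9 against 29.7 to 34.9, ratio 0.775). It stood below the rest for Eya1 (11.1 against 14.1 to 14.8, ratio 0.82). Mouse 3, the shallowest library, stood above the rest for Cd34 (122 against 75.2 to 88.1, ratio 0.727) and Gata1 (1.72 against 0 to 0.385, ratio 0.776). Mouse 4 was highest, apart from the rest, for Acp5 (23.8 against 10.4 to 13.8, ratio 0.746). Mouse 5 was set apart as the highest for Mki67 (13.97 against 6.39 to 8.51, ratio 0.721) and Zbtb46 (0.221 against 0 to 0.0591, ratio 0.732). Listed at 0 in the other 4 mice and above 0 in 1 were Abcb1a (0.0454 in mouse 4, ratio 1), Bglap (5.15 in mouse 2, ratio 1), Ncr1 (0.104 in mouse 5, ratio 1) and Procr (0.201 in mouse 5, ratio 1). Several of these levels are under an FPKM of 1 and rest on few fragments.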

How the results depend on the processing

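The number of varying entries depended on the thresholds and on mouse 1. Against 683, it was 439 at a mean FPKM of at least 5, 1833 with a 1.5-fold difference, 337 with a 3-fold difference and 1168 without the condition on the intervals. Leaving out 1 mouse at a time gave 361 (without mouse 1) to 671 (without mouse 5). It was 771 to 844 with smaller pseudocounts, 636 after quantile normalization and 658 with median-of-ratios scaling. Leaving out small RNAs gave 591, and leaving out Rn45s with them and fixing the total gave 590, settings chosen after seeing the data. The share of summed FPKM was 9.34% for 10 entries and 46.6% for 100. The count of entries present in every mouse (6934 to 10328) and the median SD (0.17 to 0.22) moved by under 1.5 times under the settings tried. Of 288 recomputed counts of varying list members 47 moved by over 1.5 times, 23 of them without mouse 1 and 4 after median-of-ratios scaling, which shifted mouse 1 by 0.09 on the log2 scale. The entries higher in mouse 1 alone numbered 69 to 84 and those lower 49 to 70 over the scalings and pseudocounts tried. No paired analysis was possible because a single group is described. Depth limits mouse 3 most, and levels under an FPKM of 1 carry few fragments in any mouse.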

Other observations

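Some varying genes belonged to no list, and were chosen here after their values were seen. S100a6, a calcium-binding protein gene, had 4.61, 32.4, 29.7, 47.4 and 24.1 FPKM in mice 1 to 5, and Plbd1, a phospholipase-like gene of granulocytes, 1.504, 11.2, 11.5, 15.3 and 14.3. Lrg1, a glycoprotein gene of neutrophil granules, had 2.07, 5.19, 5.08, 18.6 and 10.8 FPKM and Chil1, a chitinase-like gene, 1.13, 3.51, 11.3, 11.8 and 5.19. All 4 were lowest in mouse 1, and mouse 4 was highest. Serpina3g, a serine protease inhibitor gene, had 3.88, 47.6, 15.8, 24.9 and 15.9 FPKM and the complement factor gene Cfb 2.26, 17.01, 11.2, 14.6 and 10.9, both lowest in mouse 1 and highest in mouse 2.

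The total of Rps27 and Rps27rt and that of Eif3j1 and Eif3j2 each moved less than the most variable member of the pair. The totals of the near-identical Hbb-b1 and Hbb-b2 and of Tgtp1 and Tgtp2 ranged by 28.6 and 21.4 times in FPKM. These pairs were picked after their values were seen. Rps27 and Rps27rt were paired as entries that overlap or are near-identical. Rps27 had 1114, 8.21, 8.33, 8.48 and 609.8 FPKM in mice 1 to 5, while the sum of both entries was 5907, 5033, 4164, 4595 and 4578. Eif3j1 and Eif3j2, subunit genes of a translation initiation factor that share a locus, had 33.6, 47.1, 77.5, 0.337 and 33.2 and 33.7, 0.494, 0.499, 55.4 and 30.9 FPKM, and their sum ranged by 1.64 times. The highest small RNAs, Mir6236 and Mir6240, were at 7700.4 ± 2568 and 4502 ± 2088 FPKM, and 63.0% of the 146 small RNAs tested varied.

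The transcript Xist, expressed from an inactive X chromosome, had 1.69, 2.13, 3.7, 2 and 5.43 FPKM in mice 1 to 5, and the Y-linked genes Eif2s3y and Ddx3y were at 0.268, 0.714, 0.466, 1.24 and 0.584 and 0, 0.505, 0, 0.1099 and 0.05897.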
